A study of Mus musculus with 90 samples.

Results

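The genes of cytosolic nucleic acid sensing were followed in YUMM2.1, a mouse melanoma line, and CT26, a mouse colon carcinoma line, while the cells were exposed to interferon γ (IFNγ). The group holds 9 of the 53697 genes in the count table, taken by gene symbol. They were Ddx58 (RIG-I), Ifih1 (MDA5), Dhx58 (LGP2), Ddx60, Zbp1, Adar, Eif2ak2 (PKR), Znfx1 and Mavs. RNA was counted by 3′ digital gene expression, which reads transcripts at their 3′ ends, in 15 groups of 3 samples per line and 90 samples in all. Control cells received BSA (0 IU/mL IFNγ) and were collected at 0, 1, 2 and 3 weeks. Naive cells received 50 IU/mL IFNγ for 2 h or 24 h at 0 weeks. Chronic cultures stayed in 50 IU/mL IFNγ through 1, 2 or 3 weeks. Their cells were taken with no rechallenge, or 2 h or 24 h after fresh IFNγ, and all cells were plated anew shortly before harvest. The design asks how these genes answer a first dose of IFNγ, what level they hold under continued exposure, and whether a further dose still moves them.

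Cells recognize foreign or misplaced nucleic acids in the cytosol through proteins that bind features rare in their own RNA. RIG-I and MDA5 are helicases that detect the ends and the length of double-stranded RNA and signal through the mitochondrial adaptor MAVS to the transcription factors IRF3 and IRF7. ZBP1 binds nucleic acid in the left-handed Z form and can start necroptosis through RIPK3 and MLKL, while PKR, once bound to double-stranded RNA, phosphorylates eIF2α and slows translation. ADAR edits adenosine to inosine in double-stranded RNA, which limits its recognition by MDA5, PKR and ZBP1. Most of these genes are interferon-stimulated, and in tumour cells the pathway is known as a link between endogenous RNA and inflammatory signalling.

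Library totals lay between 274719 and 3161276 counts for YUMM2.1 and between 295157 and 2205285 counts for CT26. At this depth the 7 members other than Zbp1 and Eif2ak2 were counted at most 44 times in any sample, which limits the precision of their values. 3 libraries held under 25% of their line's median total, namely replicate 3 of the 3-week IFNγ group without rechallenge in each line and replicate 3 of the 1-week IFNγ group in CT26. Results that rest on them are given with and without them where the call changed. Sox10, a neural crest factor, was counted in 45 of 45 YUMM2.1 samples and 0 times in CT26, while Krt20 and Krt18 were counted in 45 of 45 CT26 samples. The pigment genes Tyrp1 and Mlana had 0 and 1 counts in YUMM2.1, Dct had 56 counts there and 127 in CT26, and the epithelial genes Epcam and Cdh1 had 0 counts in CT26. Of the immune cell genes, Cd3e had 0 counts in either line, while Cd68 had 451 counts in YUMM2.1 and 159 counts in CT26, in 43 of 45 samples each. Ptprc had 11 and 67 counts, Lyz2 61 and 26, Csf1r 21 and 4, and Itgam 5 and 0, and their part in the results was not tested. Irf1, a transcription factor induced by IFNγ, rose after 24 h in naive cells by 2.82 ± 0.233 on the log2 scale in YUMM2.1 and by 2.31 ± 0.266 in CT26 (SE). The sample titles number the replicates of each group, and the study describes triplicate cell samples. P-values thus measure the spread between these samples, part of which may be technical. In bulk RNA a lower level in each cell and a smaller share of expressing cells cannot be told apart.

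On GRCm38, Ddx58 lies at chr4:40203773-40239828, Ifih1 at chr2:62595798-62646255, Dhx58 at chr11:100694884-100704271, Zbp1 at chr2:173206612-173218923, Eif2ak2 at chr17:78852564-78882573 and Znfx1 at chr2:167035793-167063015, all on the minus strand. Ddx60 at chr8:61928087-62038244, Adar at chr3:89715022-89753446 and Mavs at chr2:131234063-131248025 are on the plus strand. Znfx1 overlaps the antisense gene Zfas1, which drew 98824 counts against 1275 for Znfx1 over all samples, and since use of strand in counting is not given in the sources used here, their reads may not be separated.

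No RefSeq promoter window was present for Zbp1 or Dhx58, so their promoters were not searched. RefSeq windows of 300 bases, 250 before and 50 after the start, were present for the other 7 of the 9 members (GRCm38.p6). They were searched on both strands for the core of the interferon-stimulated response element (ISRE), spelled GAAANNGAAA or TTTCNNTTTC, and for the gamma-activated site (GAS), spelled TTCNNNGAA. The ISRE core was found in 4 of the 7, Ddx58, Ifih1, Ddx60 and Eif2ak2, and in 3.99% of the 27025 genes with a window. The GAS was found in 2 of the 7, Adar and Eif2ak2, and in 9.55% of genes. No window of Znfx1 or Mavs held these letters. Each match is shown with its surroundings, 5′ to 3′ on the strand of the gene, with the motif in capitals. In Ddx58, Ifih1 and Eif2ak2 the ISRE core lies after the annotated start, and in Ddx60, whose window holds 2 copies, it lies before it. The match in Adar lies after an alternative start inside the gene, and the windows at the gene's own start hold none.
Ddx58, ISRE core, chr4:40239804-40239833, minus: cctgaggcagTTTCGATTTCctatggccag
Ifih1, ISRE core, chr2:62646206-62646235, minus: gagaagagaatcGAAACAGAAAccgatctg
Ddx60, first ISRE core, chr8:61928024-61928053, plus: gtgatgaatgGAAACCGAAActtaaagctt
Ddx60, second ISRE core, chr8:61928058-61928087, plus: gagcagaagaGAAACCGAAActatccttca
Eif2ak2, ISRE core, chr17:78882535-78882564, minus: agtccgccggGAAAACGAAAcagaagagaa
Eif2ak2, GAS, chr17:78882731-78882760, minus: ctgcagagctTTCCCAGAAtggaagccagg
Adar, GAS, chr3:89730730-89730759, plus: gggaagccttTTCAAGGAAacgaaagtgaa
A match describes the letters only, and no binding was measured.

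Between untreated cells of the lines, 3 of the 9 genes were called higher and 1 lower in CT26, in a comparison in which 20.1% of the 10339 genes were called higher and 25.9% lower. The members' share is thus near that of all genes. Levels are CPM, the count of a gene scaled to 1e+06 counts in its library, and differences were tested with edgeR's quasi-likelihood test, called at a Benjamini-Hochberg adjusted p below 0.05 over all genes of the fit. Ddx58 stood at 7.50, 6.16 and 6.82 CPM in the YUMM2.1 controls at 0 weeks and at 1.37, 3.76 and 2.98 CPM in CT26, a log2 difference of -1.16 ± 0.458 (SE, adjusted p = 0.0318 by edgeR). Zbp1 was counted 2, 1 and 0 times in YUMM2.1 and 11, 10 and 9 times in CT26, and Ddx60 0, 0 and 0 times against 7, 2 and 1 times, and both were called higher in CT26. Ddx60 is included in the 3, but its 0 counts in these YUMM2.1 controls make its fitted value depend on the prior count. It also entered the test through its IFNγ groups, so its call is not taken as further support. Mavs, the adaptor, stood at 7.50, 6.16 and 9.30 CPM in YUMM2.1 and between 10.7 and 20.1 CPM in the CT26 samples, a log2 difference of 0.978 ± 0.378 (adjusted p = 0.0277 by edgeR). In none of these 4 genes did the samples of the lines overlap. The share of all genes without overlap was not computed, here or in the comparisons below. Line, tissue and culture cannot be told apart in this comparison. The calls of Ddx58 and Mavs were each kept in 4 of the alternatives tried, with adjusted p from 0.0192 to 0.333 and from 0.0156 to 0.357, and that of Ddx60 was lost without replicate 1 (adjusted p = 0.138 by edgeR).

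After 2 h of IFNγ, no sensor was called in naive cells of either line, by edgeR or by DESeq2. None of the 8 members tested was called by edgeR in YUMM2.1, where 0.240% of genes were. There 0 members and 348 of the 9589 genes were below an unadjusted p of 0.05. None was called in CT26, where 0.235% of genes were, and 2 members and 310 of the 8516 genes were below an unadjusted p of 0.05. Zbp1 in CT26 stood at 10.8, 6.35 and 12.5 CPM at 2 h against 7.54, 6.27 and 5.37 CPM in controls, and these overlapped. Dhx58 was counted 90 times in all YUMM2.1 samples and 105 times in all CT26 samples and did not pass the filter on low counts in either line, which left 8 of the 9 genes tested per line. Ddx60 had 0 counts in all 12 YUMM2.1 controls and passed that filter through its IFNγ groups alone. So did Zbp1 in YUMM2.1 (highest control 1.57 CPM), Ifih1 in YUMM2.1 and CT26 (2.46 and 2.74 CPM) and Ddx60 in CT26 (4.80 CPM). Adar in both lines and Ddx58, Zbp1 and Znfx1 in CT26 had too few controls at the filter's level to pass without IFNγ samples. Shares of called members that include these genes thus partly reflect how they entered the test.

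After 24 h, 6 of the 8 tested genes rose in naive CT26 cells, in a comparison in which 1.77% of all genes did so. RIG-I and MDA5, the helicases that signal through MAVS, were among them. Of the 6, Eif2ak2 alone needed no IFNγ samples to pass the filter, so the 6 of 8 partly reflects how genes entered the test. Ddx58 stood at 15.4, 27.5 and 24.7 CPM against 1.37, 3.76 and 2.98 CPM in controls, an increase of 3.04 ± 0.400 on the log2 scale (adjusted p = 2.66e-07 by edgeR). Ifih1 stood at 11.6, 8.08 and 11.2 CPM against 2.74, 1.25 and 1.79 CPM, an increase of 2.40 ± 0.525 (adjusted p = 0.00333 by edgeR). Every treated sample lay above every control for both genes, and the call of Ifih1 was kept in 6 of 9 alternatives. Ddx60, an interferon-induced helicase related to the RIG-I family, stood at 15.4, 22.6 and 26.9 CPM against 4.80, 1.25 and 0.596 CPM and rose by 3.36 ± 0.475 (adjusted p = 1.43e-06 by edgeR), again without overlap. Zbp1 stood at 339, 302 and 281 CPM against 7.54, 6.27 and 5.37 CPM. Its increase of 5.59 ± 0.219 had the smallest p of the 8516 genes tested in CT26 (adjusted p = 2.51e-23 by edgeR). PKR, which halts translation, and the editing enzyme ADAR rose as well. Eif2ak2 stood at 98.2, 98.6 and 93.4 CPM against 33.6, 44.5 and 26.8 CPM, an increase of 1.48 ± 0.246 (adjusted p = 3.94e-05 by edgeR). Adar stood at 19.3, 12.9 and 14.2 CPM against 3.43, 4.39 and 8.35 CPM, an increase of 1.47 ± 0.381 (adjusted p = 0.0222 by edgeR), and its call was kept in 5 of 9 alternatives. Neither gene had overlapping groups. Znfx1, a helicase reported to bind double-stranded RNA at mitochondria, gave a log2 difference of 1.17 ± 0.404 and was not called (adjusted p = 0.168 by edgeR), and Mavs stood at 15.5 CPM against 13.9 CPM on average with overlapping samples. The median log2 fold change was 1.94 over the 8 tested members and -0.022 over all genes. The members' median likewise partly reflects how these genes entered the test.

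In naive YUMM2.1 cells, Zbp1 was the 1 member of 8 called at 24 h, where 0.855% of all genes rose. It was counted 52, 72 and 134 times, or 60.6, 70.4 and 57.2 CPM, against 2, 1 and 0 counts in controls. The increase was 6.30 ± 0.379 on the log2 scale (adjusted p = 7.19e-18 by edgeR), and the ratio of summed counts was 87.4 with a 95% exact interval of counting error from 29.6 to 427. By fold change Zbp1 ranked 11 among 9589 genes. The rank rests on 2, 1 and 0 control counts and on a gene that passed the filter through its IFNγ groups alone. Ifih1 stood at 8.16, 2.93 and 3.42 CPM against 0.535, 2.46 and 0 CPM without overlap, a log2 difference of 2.48 ± 0.859 that was not called (adjusted p = 0.329 by edgeR). Ddx58 stood at 10.5, 11.7 and 10.3 CPM against 7.50, 6.16 and 6.82 CPM, also without overlap, with a log2 difference of 0.60 ± 0.396 (adjusted p = 0.836 by edgeR). Eif2ak2, at 0.60 ± 0.244, and Znfx1, at 1.42 ± 0.506, were likewise above all controls in 3 of 3 samples and not called. 5 of the 8 tested members and 673 of the 9589 genes were below an unadjusted p of 0.05.

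**Figure D1:**
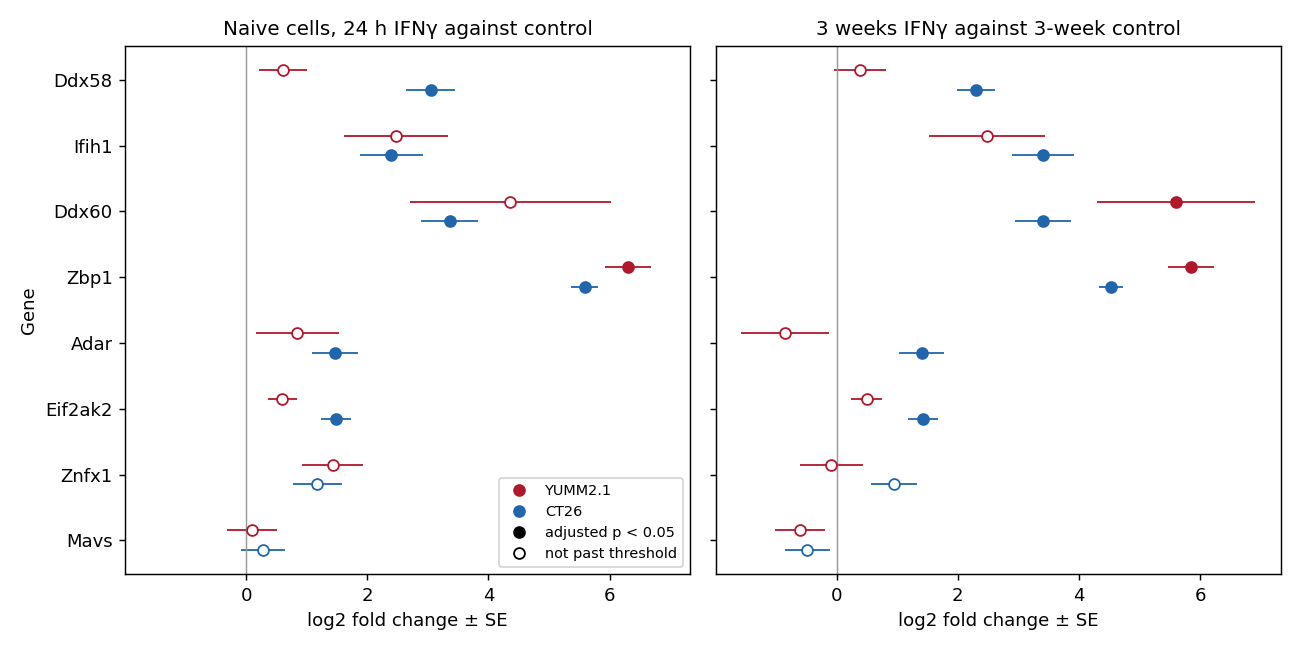
Log2 fold changes (horizontal axis, ± SE) of the 8 tested genes after 24 h of IFNγ in naive cells (left) and after 3 weeks of IFNγ against 3-week controls (right) in YUMM2.1 (red) and CT26 (blue), with filled points at an adjusted p below 0.05. 6 genes are filled in CT26 in each panel, while in YUMM2.1 Zbp1 is filled in both. Ddx60, filled on the right in YUMM2.1, is not counted as a call because it had 0 counts in all controls, so that its fitted value depends on the prior count. Of the filled genes, Eif2ak2 alone needed no IFNγ samples to pass the filter on low counts.

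Between 2 h and 24 h, 5 of 8 tested genes rose in CT26, beside 1.33% of all genes. They were Ddx58 (2.09), Ifih1 (1.92), Zbp1 (4.86), Eif2ak2 (1.24) and Ddx60 (3.28 on the log2 scale). All but Eif2ak2 needed IFNγ samples to pass the filter on low counts. The call of Ifih1 was kept in 3 of 8 alternatives, with adjusted p up to 0.33, and that of Eif2ak2 was lost without replicate 1 (adjusted p = 0.13 by edgeR). In YUMM2.1 Zbp1 rose by 5.85 from 2 h to 24 h, 1 of 8 tested members beside 0.553% of genes. DESeq2 called Zbp1 and Eif2ak2 in this interval in CT26 and gave no adjusted p for the 3 helicases, whose counts were low.

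The difference between the lines in the 24 h response was tested over all 90 samples. It was called for Ddx58 alone among the 9 members, with a larger response in CT26 by 2.48 ± 0.572 on the log2 scale (adjusted p = 0.0494 by edgeR), where 0.0484% of genes were higher. The call was kept in 2 of 8 alternatives, with adjusted p from 0.0456 to 0.924 and values from 2.25 to 2.81. Zbp1 gave -0.65 ± 0.616 and Eif2ak2 0.92 ± 0.350, and neither was called. A difference between the lines was not shown for Ifih1, Ddx60, Adar or Eif2ak2, although these were called in CT26 alone.

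Under continued IFNγ, Zbp1 was above its same-week controls at every time in both lines. In YUMM2.1 Zbp1 was called at each time, as 1 of 8 tested members at 1 week (0.657% of genes rose) and at 2 weeks (0.897%), and at 3 weeks (0.720%). At 1 week it stood at 20.9, 23.4 and 20.7 CPM against 0.433, 0.376 and 0.316 CPM in controls with 1 count each, a ratio of summed counts of 59.4 (95% exact interval 19.7 to 293). At 2 weeks it stood at 53.3, 53.1 and 31.3 CPM against 1.57, 1.01 and 0.836 CPM, an increase of 5.17 ± 0.380 (adjusted p = 1.09e-14 by edgeR). At 3 weeks it stood at 32.8, 33.0 and 47.3 CPM against 0, 0.751 and 0.656 CPM, an increase of 5.85 ± 0.383 on the log2 scale (adjusted p = 2.39e-16 by edgeR). No chronic sample overlapped a control at any time. Ddx60 was counted 3, 4 and 3 times at 3 weeks against 0 in each control, and the highest value, 10.9 CPM, is 3 counts in the shallow library. It also passed the threshold, but since it had 0 counts in all YUMM2.1 controls this is not counted as a call here. No fold is given, and the threshold was passed in 4 of 8 alternatives. Ddx58 at 1 week stood at 10.2, 6.91 and 12.4 CPM against 2.60, 4.52 and 2.85 CPM, a log2 difference of 1.39 ± 0.407 that was not called (adjusted p = 0.134 by edgeR).

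In CT26 the number of sensors called against same-week controls was 2 of 8 at 1 week, 2 of 8 at 2 weeks and 6 of 8 at 3 weeks, by edgeR, beside 0.658%, 0.928% and 3.44% of all genes that rose. DESeq2 called 3, 1 and 6. At 1 week Zbp1 stood at 90.8, 94.0 and 55.8 CPM against 4.29, 4.45 and 4.08 CPM (increase 4.22 ± 0.267, adjusted p = 2.09e-15 by edgeR). Ddx60 stood at 11.4, 10.3 and 24.8 CPM against 0.857, 1.27 and 3.17 CPM (2.62 ± 0.527, adjusted p = 0.002 by edgeR), and without the shallow library, which held the 24.8 CPM, it rose by 2.33 (adjusted p = 0.0187 by edgeR). The call was lost without replicate 1 or 2. At 2 weeks Zbp1 stood at 84.1, 63.9 and 74.9 CPM against 5.52, 2.11 and 3.56 CPM, an increase of 4.12 ± 0.286 (adjusted p = 2e-14 by edgeR). Ifih1 was counted 5, 3 and 8 times against 0 in each 2-week control, which is at least 1.48-fold higher when each control library is set to 3 counts. It passed the threshold (adjusted p = 0.00292 by edgeR) and is included in the 2 of 8. Since it entered the test through its IFNγ groups alone, with no CT26 control above 2.74 CPM, this adjusted p is not taken as further support. The call of Ifih1 was lost without replicate 1 or 3, and DESeq2 gave it no adjusted p. No samples overlapped in these 4 comparisons. Eif2ak2 stood at 59.3, 39.9 and 121 CPM against 40.3, 26.1 and 31.3 CPM at 1 week, which overlapped, and was not called (0.94 ± 0.265, adjusted p = 0.111 by edgeR). It was called there by DESeq2 (adjusted p = 0.0191), with library totals (0.0469) and without the filter (0.0106). At 2 weeks it stood at 41.6, 54.6 and 61.6 CPM against 26.2, 24.3 and 34.7 CPM without overlap and was not called (0.82 ± 0.266, adjusted p = 0.135 by edgeR), but was without the filter, without the shallow libraries and with the compared groups only (adjusted p from 0.0167 to 0.0384).

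At 3 weeks the CT26 calls were Ddx58, Ifih1, Ddx60, Zbp1, Adar and Eif2ak2. All of these but Eif2ak2 needed IFNγ samples to pass the filter on low counts. Ddx58 stood at 38.9, 54.3 and 33.9 CPM against 6.83, 9.23 and 6.87 CPM, an increase of 2.30 ± 0.318 (adjusted p = 8.04e-07 by edgeR). Ifih1 stood at 17.6, 28.4 and 3.39 CPM against 2.28, 0.710 and 1.37 CPM, where the lowest value is 1 count in the shallow library, and rose by 3.41 ± 0.511 (adjusted p = 5.53e-06 by edgeR). Ddx60 stood at 29.6, 33.6 and 16.9 CPM against 1.52, 2.84 and 2.29 CPM and rose by 3.41 ± 0.464 (adjusted p = 5.37e-07 by edgeR). The helicases were thus above every control in 3 of 3 samples. Zbp1 stood at 314, 292 and 261 CPM against 5.31, 15.6 and 11.5 CPM, an increase of 4.53 ± 0.203 (adjusted p = 9.22e-22 by edgeR). Adar stood at 15.7, 20.7 and 16.9 CPM against 7.59, 5.68 and 4.58 CPM and rose by 1.40 ± 0.377 (adjusted p = 0.0148 by edgeR), a call kept in 5 of 9 alternatives. Eif2ak2 stood at 96.3, 82.7 and 180 CPM against 41.7, 35.5 and 31.6 CPM and rose by 1.42 ± 0.249 (adjusted p = 7.73e-05 by edgeR). The highest of these Eif2ak2 values, and the 121 CPM at 1 week, came from the shallow libraries, and without them the 3-week increase was 1.11. Znfx1 and Mavs were not called, at 0.95 ± 0.382 and -0.49 ± 0.369 on the log2 scale. Dhx58 was counted 1, 6 and 0 times against 0 in each control. Over the 8 tested members the median log2 fold change was 1.86, and over all genes 0.016. As most of these members needed IFNγ samples to pass the filter, their median partly reflects how they entered the test.

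**Figure D2:**
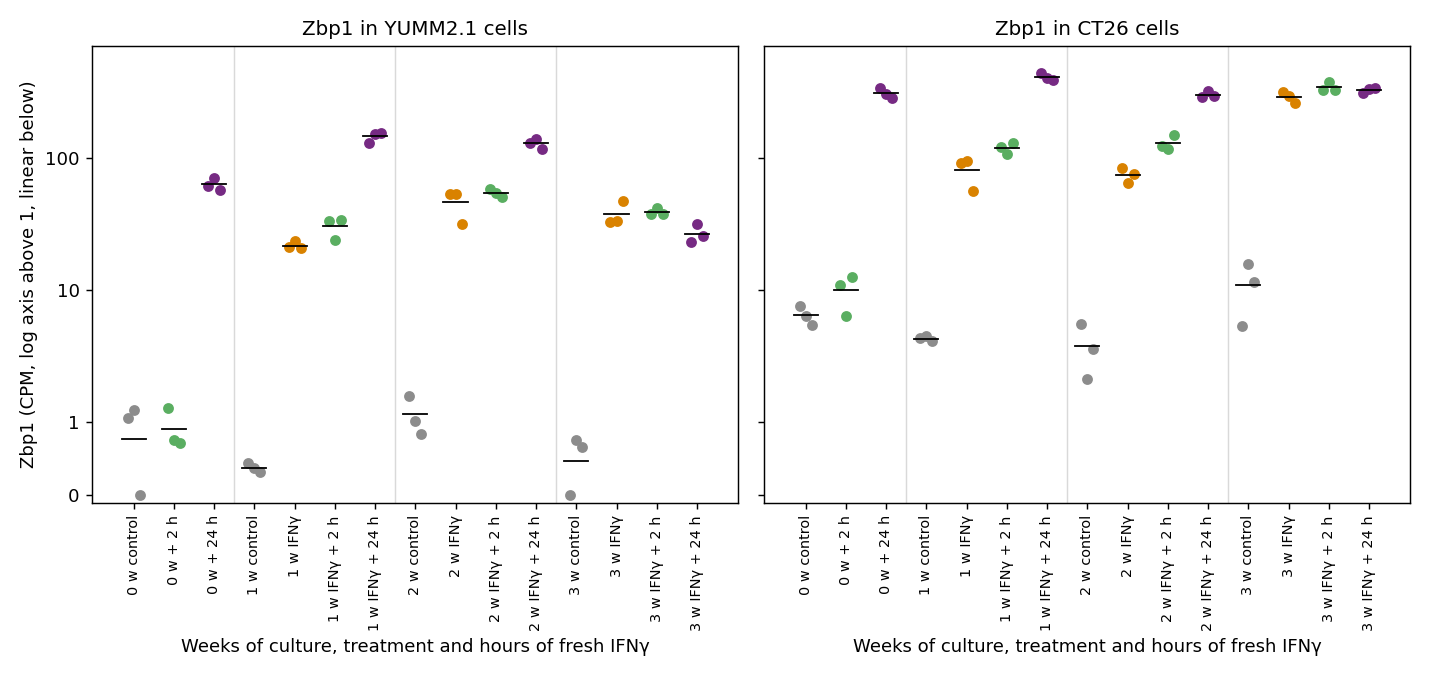
Zbp1 in each of the 3 samples (points) of the 15 groups of YUMM2.1 (left) and CT26 (right), in CPM on an axis that is logarithmic above 1 and linear below, with black lines at the means and colours for controls (grey), IFNγ without rechallenge (orange), 2 h (green) and 24 h (purple) of fresh IFNγ. Every sample with 24 h or with weeks of IFNγ lies above every control of its line, and in both lines the highest group mean is that of 24 h after 1 week, 145 CPM (YUMM2.1) and 408 CPM (CT26).

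The levels held at 3 weeks were set against those at 2 weeks and against those of naive cells at 24 h. In CT26, 5 of 8 tested genes rose from 2 to 3 weeks of IFNγ, beside 1.60% of all genes. The increases were 1.47 ± 0.301 for Ddx58, 2.05 ± 0.451 for Ifih1, 1.98 ± 0.408 for Ddx60, 1.84 ± 0.161 for Zbp1 and 0.92 ± 0.244 for Eif2ak2 on the log2 scale. Here too, all but Eif2ak2 needed IFNγ samples to pass the filter. Without the shallow libraries Eif2ak2 was not called (0.61, adjusted p = 0.0926 by edgeR) and the other 4 were. Leaving out replicate 1 or 2 left 2 and 1 of the 5 calls, with Zbp1 called each time. Against naive cells at 24 h, none of the 8 was called at 3 weeks in CT26 by edgeR, where 4.80% of genes were, or by DESeq2. In that comparison 1 member and 1602 of the 8516 genes were below an unadjusted p of 0.05. In YUMM2.1 none of the 8 was called from 2 to 3 weeks, where 0.0730% of genes were, by edgeR or DESeq2. There 0 members and 758 of the 9589 genes were below an unadjusted p of 0.05. Zbp1 in YUMM2.1 was lower at 3 weeks than in naive cells at 24 h by -0.86 ± 0.218 (adjusted p = 0.0460 by edgeR), with 3 of 3 samples below, and was 1 of 8 members called where 0.417% of genes fell. This call was lost with the compared groups alone, without the filter, and without replicate 1 or 2. In control cultures between 0 and 3 weeks none of the 8 members was called by edgeR or DESeq2 in YUMM2.1 (0.521% of genes) or CT26 (0.916%). Below an unadjusted p of 0.05 were 0 members and 799 of 9589 genes in YUMM2.1, and 2 members and 1025 of 8516 genes in CT26.

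The response to 3 weeks of IFNγ was not called as different between the lines for any of the 9 members by edgeR or DESeq2, where 0.106% of genes were. Below an unadjusted p of 0.05 were 4 members and 664 of the 10339 genes. The nearest was Ddx58, with a response larger in CT26 by 1.97 ± 0.521 (adjusted p = 0.138 by edgeR).

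The 2 h rechallenge gave 1 call among these genes in each line. In YUMM2.1 none of 8 was called at 1 week, where 0.615% of genes were, or at 2 weeks, where 0.428% were. Below an unadjusted p of 0.05 by edgeR were 1 member and 1065 of 9589 genes at 1 week, and 0 members and 563 genes at 2 weeks. DESeq2 called none of the 8 either, nor at 1 and 3 weeks in CT26. At 3 weeks Adar was called, as 1 of 8 where 0.876% of genes rose, and 4 of 8 members and 1156 of 9589 genes were below an unadjusted p of 0.05. The median log2 difference was 1.09 over the 8 and 0.029 over all genes. Ifih1, Ddx60, Zbp1 and Adar passed the filter only with IFNγ samples, so the members' median partly reflects how genes entered the test. Adar was counted 10, 30 and 18 times against 7, 0 and 0 times, with CPM of 7.24, 23.0 and 12.8 against 4.33, 0 and 0, an increase of 2.52 ± 0.670 (adjusted p = 0.0464 by edgeR). The call was kept in 4 of 8 alternatives, and without the shallow library, which had 0 counts, the adjusted p was 0.109. In the same comparison Ddx58 stood at 15.2, 32.2 and 17.1 CPM against 6.80, 10.3 and 3.64 CPM (1.40 ± 0.394, adjusted p = 0.0722 by edgeR) and Ifih1 at 11.6, 14.6 and 7.13 CPM against 1.24, 4.13 and 3.64 CPM (2.00 ± 0.696, adjusted p = 0.201 by edgeR). Neither overlapped and neither was called. Znfx1, counted 35, 29 and 21 times against 3, 9 and 6 times, gave 1.47 ± 0.506 and was not called (adjusted p = 0.188 by edgeR), with overlap in CPM through the shallow library at 21.8 CPM. In CT26 none of 8 was called at 1 week (0.376% of genes) or 3 weeks (0.0117%). Each time 2 members were below an unadjusted p of 0.05 by edgeR, beside 695 and 618 of the 8516 genes. Zbp1 was called at 2 weeks, as 1 of 8 where 0.294% of genes rose, from 84.1, 63.9 and 74.9 CPM to 123, 116 and 148 CPM (0.81 ± 0.158, adjusted p = 0.00322 by edgeR). It was not called without replicate 1, 2 or 3, with values from 0.65 to 0.93 over all alternatives.

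Fresh IFNγ for 24 h was followed by a called increase of Zbp1 alone among the tested members, after 1 and 2 weeks of exposure, with no call after 3. In YUMM2.1 at 1 week it went from 20.9, 23.4 and 20.7 CPM to 130, 151 and 153 CPM, an increase of 2.70 ± 0.208 (adjusted p = 1.09e-13 by edgeR), as 1 of 8 where 1.12% of genes rose. At 2 weeks it went from 53.3, 53.1 and 31.3 CPM to 129, 138 and 116 CPM, an increase of 1.50 ± 0.189 (adjusted p = 4.96e-07 by edgeR), as 1 of 8 where 0.532% rose. At 3 weeks it stood at 22.8, 31.4 and 25.4 CPM after 24 h against 32.8, 33.0 and 47.3 CPM before, a log2 difference of -0.39 ± 0.232 that was not called, although all 3 samples lay below. In CT26 at 1 week Zbp1 went from 90.8, 94.0 and 55.8 CPM to 438, 402 and 384 CPM (2.19 ± 0.164, adjusted p = 1.07e-13 by edgeR, 1 of 8 where 0.928% of genes rose). At 2 weeks it reached 285, 319 and 293 CPM (2.00 ± 0.155, adjusted p = 4.45e-13 by edgeR, 1 of 8 where 0.599% rose). At 3 weeks it stood at 310, 329 and 338 CPM after 24 h against 314, 292 and 261 CPM before, which overlapped, with a log2 difference of 0.19 ± 0.147. At 3 weeks none of the 8 members and 0% of all genes were called by edgeR in either line, and DESeq2 called no member. Below an unadjusted p of 0.05 were 0 members, beside 351 of 9589 genes in YUMM2.1 and 439 of 8516 genes in CT26. Ddx60 in YUMM2.1 at 1 week was counted 9, 13 and 8 times after 24 h against 3, 1 and 0 before, without overlap, and was not called (adjusted p = 0.0642 by edgeR).

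**Figure D3:**
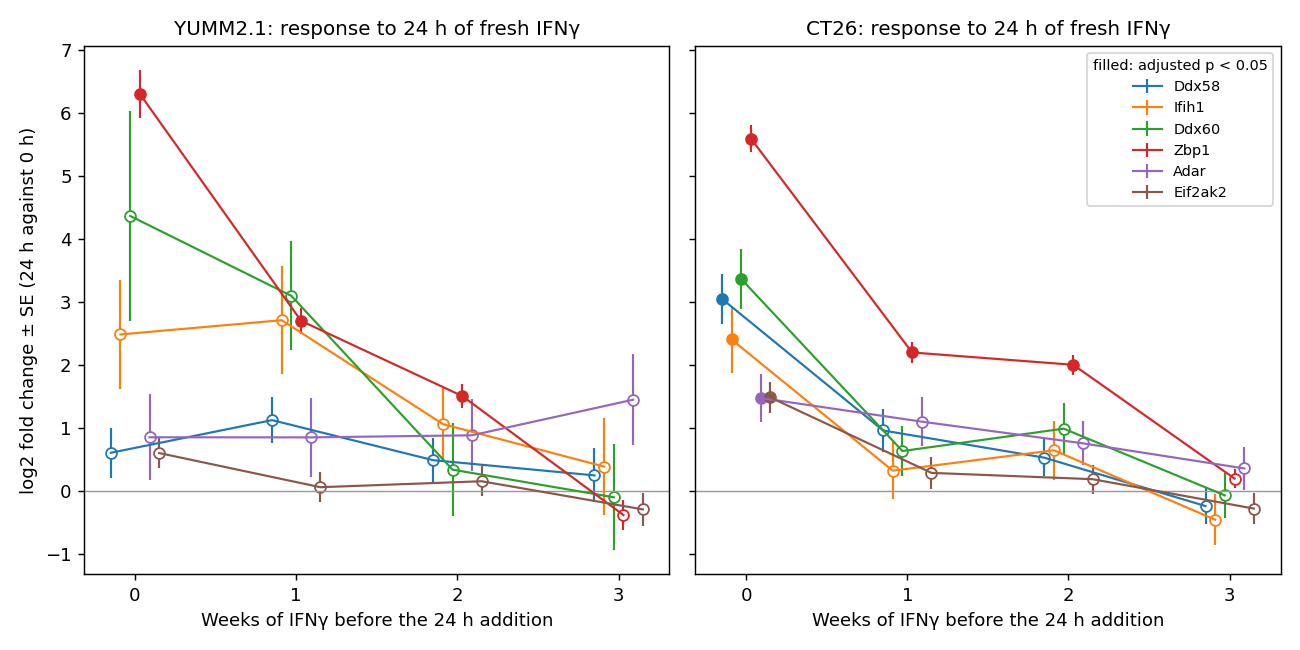
Log2 fold change ± SE (vertical axis) after 24 h of fresh IFNγ against the matching samples without it, in cells with 0, 1, 2 or 3 weeks of earlier IFNγ (horizontal axis, points set apart sideways), for 6 genes in YUMM2.1 (left) and CT26 (right), with filled points at an adjusted p below 0.05. Zbp1 (red) is filled at 0, 1 and 2 weeks in both lines and lies at -0.39 and 0.19 at 3 weeks, and the value of Ddx60 in naive YUMM2.1 cells, whose controls had 0 counts, depends on the prior count.

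Whether the 24 h response of cells after 3 weeks of IFNγ differed from that of naive cells was tested as an interaction, which uses the same samples as the comparisons above. In CT26 the response was smaller for 5 of 8 members, where 1.09% of genes had a smaller one. Of the 5, Eif2ak2 alone needed no IFNγ samples to pass the filter, so the share partly reflects how genes entered the test. The differences were -3.29 ± 0.494 for Ddx58, -2.86 ± 0.663 for Ifih1, -3.43 ± 0.602 for Ddx60, -5.40 ± 0.274 for Zbp1 and -1.76 ± 0.344 for Eif2ak2 on the log2 scale, with adjusted p from 4.16e-19 to 0.00972 by edgeR. The call of Ifih1 was kept in 5 of 9 alternatives and those of the other 4 in all 9. Adar, at -1.12 ± 0.510, was not called. In YUMM2.1 the response was smaller for Zbp1, by -6.69 ± 0.478 (adjusted p = 4.90e-15 by edgeR), 1 of 8 where 0.615% of genes had a smaller one, and Eif2ak2 gave -0.89 ± 0.354 without a call. In CT26 the starting level of Zbp1 differed between the arms, at 289 CPM at 3 weeks against 6.39 CPM in naive controls, while the levels after 24 h were 326 and 307 CPM. In YUMM2.1 the starting levels were 37.7 and 0.767 CPM and the levels after 24 h were 26.5 and 62.7 CPM. For the 2 h response no member was called by edgeR or DESeq2 in YUMM2.1 (0.115% of genes) or CT26 (0.211%). Below an unadjusted p of 0.05 were 2 members and 648 of 9589 genes in YUMM2.1, and 0 members and 463 of 8516 genes in CT26.

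The order of the 15 group means describes the levels within each line. Overlap of neighbours does not mean that distant groups overlap: Ddx58 and Eif2ak2 had no gap in CT26 but were called there at 24 h and 3 weeks. The share of gaps over all genes was not computed. Zbp1 in CT26 ran from 3.73 CPM in 2-week controls to 408 CPM at 24 h after 1 week, and 5 of the 14 neighbouring pairs of groups did not overlap. One such gap lay between 3 weeks of IFNγ (289 CPM) and 2 h after 2 weeks (129 CPM), so that the 3 IFNγ groups at 3 weeks lay with the 24 h groups. In YUMM2.1 Zbp1 ran from 0.375 to 145 CPM with 2 gaps, one below the 24 h groups of 1 and 2 weeks and one between the lowest chronic group (21.6 CPM) and the 2-week controls (1.14 CPM). Ddx58 had no gap in either line, with means of 3.32 to 21.5 CPM in the melanoma line and 2.71 to 42.3 CPM in the carcinoma line. Neighbours in the order of Eif2ak2, Znfx1 and Mavs all overlapped as well. Samples of Mavs spanned 2.93 to 16.9 CPM in YUMM2.1 and 7.15 to 34.1 CPM for CT26, and its 33 IFNγ samples had a median of 9.13 CPM against 9.25 CPM in the 12 controls of YUMM2.1, and 14.9 against 17.6 CPM in CT26. Dhx58, which encodes a helicase that modulates RIG-I and MDA5 and lacks their signalling domain, was not counted in 11 samples of each line. Its highest control sample held 1.50 CPM in the melanoma line and 1.79 CPM in the carcinoma line, and its IFNγ samples had medians of 1.86 and 2.14 CPM.

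**Figure D4:**
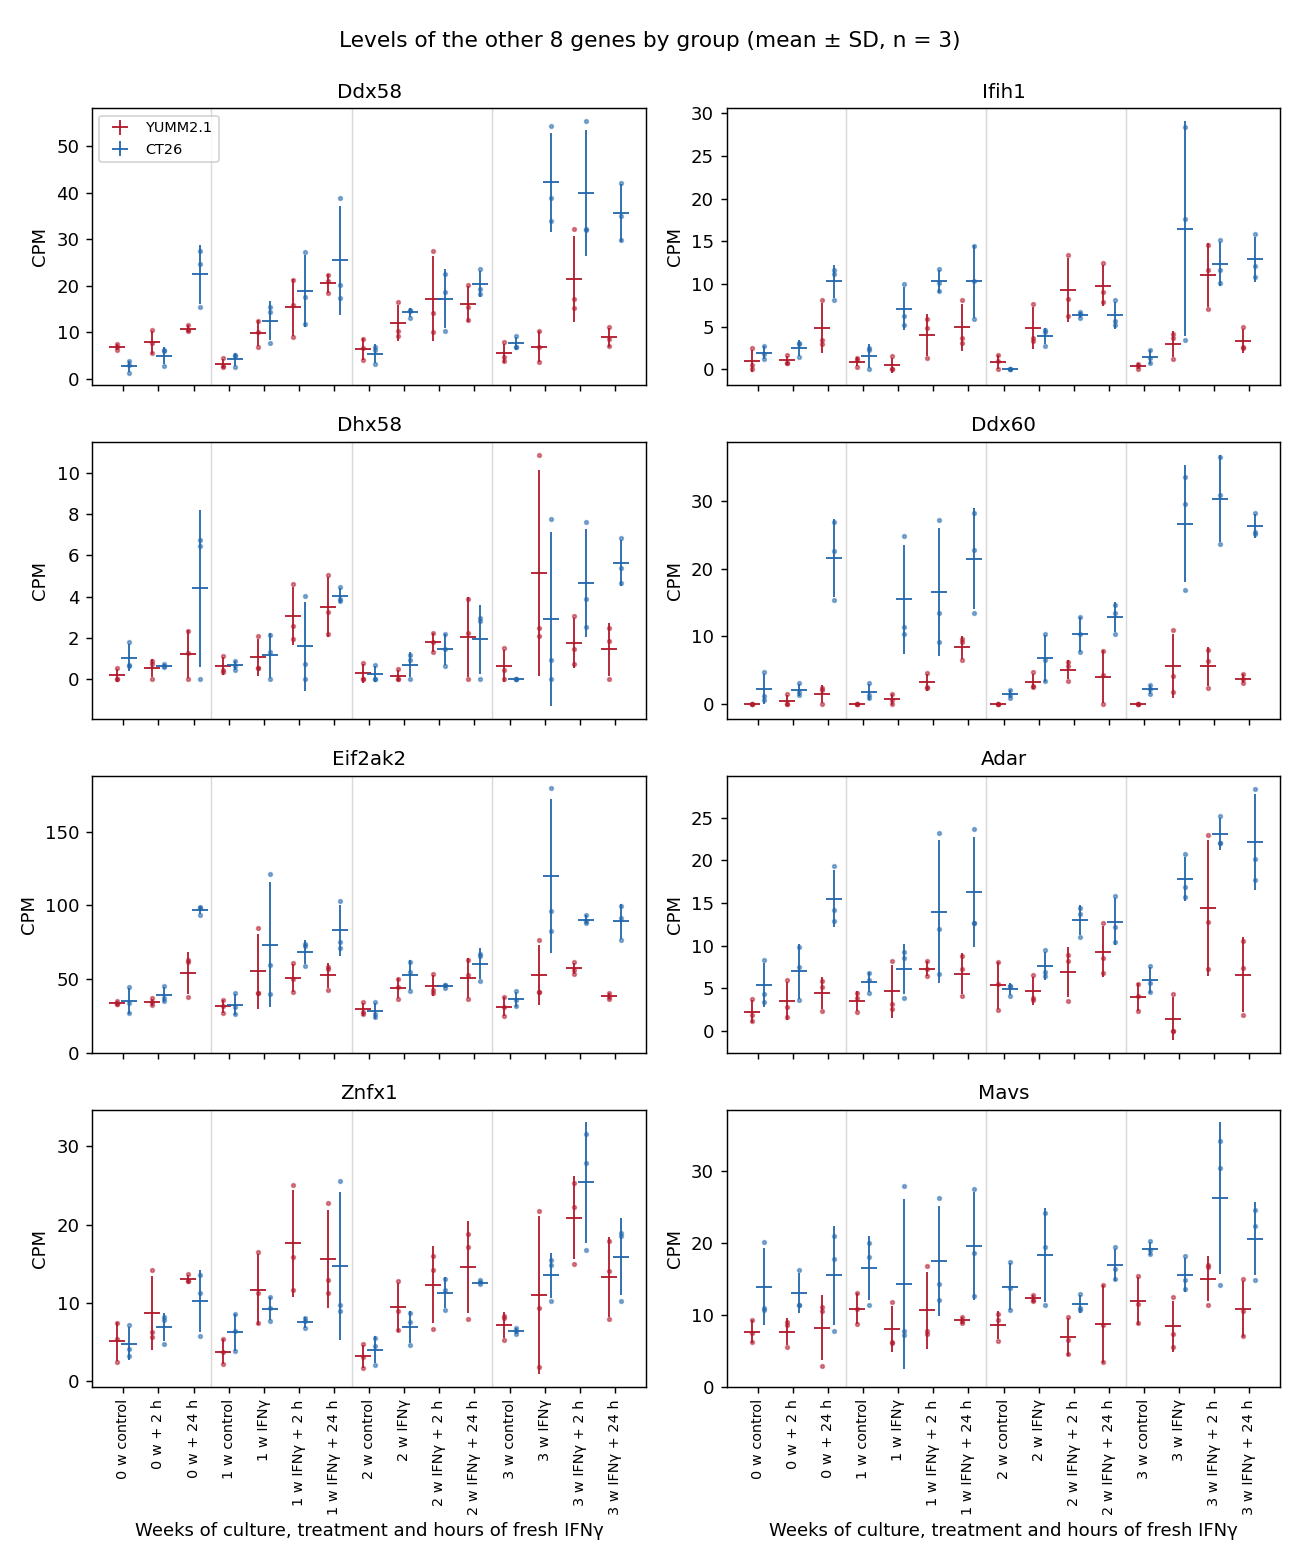
Levels in CPM (vertical axes) of the 8 genes other than Zbp1 in the 15 groups of YUMM2.1 (red) and CT26 (blue), with small points for samples and bars for mean ± SD (n = 3). In CT26 the means of Ddx58 and Ddx60 at 3 weeks of IFNγ (42.3 and 26.7 CPM) lie near or above those of naive cells at 24 h (22.5 and 21.6 CPM). Groups that neighbour each other in the order of means all overlap for Mavs, as they do for Ddx58 and Ddx60 in CT26.

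Other genes of these pathways were counted from 66 genes in 7 lists, with 45 passing the filter in YUMM2.1 and 42 in CT26. After 24 h in naive cells, 1 rose in YUMM2.1, Mlkl, the executor of necroptosis downstream of ZBP1 (0.74 ± 0.174), and 4 rose in CT26, beside 0.855% and 1.77% of all genes. Those in CT26 were Irf7 (3.79), the transcription factor downstream of MAVS, Isg15 (3.14), a ubiquitin-like modifier, Usp18 (3.93), which removes it, and Mlkl (0.89). The call of Mlkl was kept in 5 of 9 alternatives in each line, with adjusted p up to 0.56 in YUMM2.1 and 0.328 in CT26. At 3 weeks 8 rose in CT26 and 0 in YUMM2.1, beside 3.44% and 0.720% of all genes. Samhd1, a dNTP hydrolase, fell by 0.47 in CT26 and by 0.60 in YUMM2.1, where the call was lost without the shallow library (adjusted p = 0.233 by edgeR). It was kept in 6 of 9 alternatives in CT26 and 4 of 9 in YUMM2.1, with adjusted p up to 0.129 and 0.277. Of all genes, 323 of 8516 fell in CT26 and 24 of 9589 in YUMM2.1. Of the 14 tested genes that activate or regulate RIG-I-like receptors, 5 rose at 3 weeks in CT26, namely Isg15 (3.27), Usp18 (3.81), Trim25 (2.08), an E3 ligase for RIG-I, Zc3hav1 (1.80), an antiviral zinc finger protein, and Ddx3x (1.26). Ddx3x was kept in 7 of 9 alternatives, with values from 0.36 to 1.62, and Trim25 in 8 of 9. Of the 10 tested between MAVS and IRF3, Irf7 (4.76) and Tomm70a (1.34) rose, the latter not without the shallow libraries (adjusted p = 0.0757 by edgeR), and Tlr3 (3.11), the endosomal receptor for double-stranded RNA, was the 1 of 2 tested endosomal sensors that rose, a call kept in 6 of 8 alternatives. None of the 8 tested genes of the PKR arm was called at either time in CT26, nor any of the 9 in YUMM2.1. All of these calls are by edgeR at an adjusted p below 0.05.

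Genes with the most similar pattern were sought among 7810 genes tested in both lines, by Pearson's r of group mean log2 CPM over the 15 groups of each line, averaged over the lines. The groups share controls and libraries, so the values are a description. For Zbp1 they were the immunoproteasome genes Psme2 (0.991) and Psmb10 (0.990) and the class I gene H2-T22 (0.988). For Ddx58 they were Oasl2 (0.943), Gm43302 (0.926) and Gbp4 (0.925), for Ifih1 Oasl2 (0.930), Gm43302 (0.922) and Parp9 (0.922), and for Ddx60 Parp9 (0.947), H2-K1 (0.937) and Parp11 (0.936). Eif2ak2 was nearest to Apol9a and Apol9b (0.914 each), which are near-identical genes, and Uaca (0.912). Adar was nearest to Oasl2 (0.839), Tmem140 (0.836) and Batf2 (0.831), and Znfx1 to Dtx3l (0.929), Parp12 (0.913) and Nlrc5 (0.901). The nearest genes to Mavs reached 0.688 for Synj2 and 0.678 for Nfkbia and Sec24c.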

How the data were processed

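The authors deposited 1 table of raw whole-number counts with genes in rows and samples in columns, neither normalized nor pooled. The submitters' processing notes name Salmon 0.13.1 and the mm10 build, and the role of each is not given in the sources used here. Replicates were grouped by the labels, and 0 columns were left unused. The samples discarded by the study are not named in its text, so all 90 were kept. Of the 53697 identifiers, 53668 matched a symbol.

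Counts were analysed in R 4.3.3 with edgeR 4.0.16: filterByExpr by group, TMM scaling, a quasi-likelihood model per line with all its 15 groups, or of both lines where lines were compared, and Benjamini-Hochberg adjustment with a threshold of 0.05. SE is the absolute log2 fold change divided by the square root of F. A gene with few counts has low precision, and intervals and floors cover counting error only. CPM use library totals. The 9 members, the gene lists and the tests were chosen with earlier results of these data known. Named are the members, pathway genes past the threshold at 24 h or 3 weeks, and the 3 genes most similar to each member. Alternatives were DESeq2 1.42.0, library totals without TMM, no filter, the compared groups only, a block for replicate number, omission of each replicate number or of the shallow libraries, TMM-scaled CPM, and a prior count of 0.5 instead of 2. The code was tested on simulated data. No 2 replicates of a group held identical counts. Some control genes are not reported here.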

Additional observations from a re-analysis of the deposited data

Results flagged for a closer look

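7 differences between responses passed the test of the difference itself. The 24 h response after 3 weeks of IFNγ minus that of naive cells was -6.69 ± 0.478 on the log2 scale for Zbp1 in YUMM2.1. In CT26 it was -5.40 ± 0.274 for Zbp1, -3.29 ± 0.494 for Ddx58, -2.86 ± 0.663 for Ifih1, -3.43 ± 0.602 for Ddx60 and -1.76 ± 0.344 for Eif2ak2. Starting levels differed between the arms: for Ddx58 in CT26 they were 42.3 CPM at 3 weeks and 2.71 CPM in naive controls, and after 24 h 35.7 and 22.5 CPM. In the same order, starting levels were 16.5 and 1.93 CPM for Ifih1, 26.7 and 2.22 for Ddx60, and 120 and 35.0 for Eif2ak2. After 24 h these genes stood at 12.9 and 10.3, 26.3 and 21.6, and 89.1 and 96.8 CPM. Of the called CT26 genes, Eif2ak2 alone needed no IFNγ samples to pass the filter on low counts. The naive 24 h response of Ddx58 in CT26 minus that in YUMM2.1 was 2.48 ± 0.572. The part of the starting level, or of RNA yield per cell, in these differences was not tested.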

How the results depend on the processing

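Of 50 called fold changes, 30 were kept under every alternative that gave a value, none changed direction, and 66 of their recomputed values lost the call. The 50 include Ddx60 at 3 weeks in YUMM2.1, which is not counted as a call above. Counts of called members that changed by more than 1.5 times were as follows. Smaller shifts also occurred, among them 4 to 6 calls for naive 24 h in CT26 and 5 to 7 at 3 weeks in CT26, where the 7 include Dhx58 with 0 counts in each control, 4 to 5 for its 24 h response difference, and 3 of the 4 untreated calls with DESeq2, library totals or the block. With the compared groups only, 3 weeks against naive 24 h in YUMM2.1 gave 0, the naive 24 h response between lines 0, untreated lines 1, 3 weeks in YUMM2.1 1 instead of 2 (Ddx60 included in these counts), 3 against 2 weeks in CT26 3, and the 2 h rechallenge at 3 weeks in YUMM2.1 0. DESeq2 gave 0 for the naive 24 h response between lines, 1 for 2 weeks in CT26 and 2 for 24 h against 2 h in CT26. Library totals gave 0 for the naive 24 h response between lines and 2 for the 2 h rechallenge at 3 weeks in YUMM2.1, where Ddx58 was added. No filter gave 0 for 3 weeks against naive 24 h in YUMM2.1, 0 for the naive 24 h response between lines and 2 for untreated lines. Without the shallow libraries, 3 weeks in YUMM2.1 gave 1 and its 2 h rechallenge 0.

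Leaving out each replicate number in turn gave 0 to 1 for 3 weeks against naive 24 h in YUMM2.1, 0 for the naive 24 h response between lines, 2 to 4 for untreated lines, 1 to 2 at 1 week and 1 to 2 at 2 weeks in CT26, 1 at 3 weeks in YUMM2.1, 1 to 4 for 3 against 2 weeks in CT26, 3 to 4 for 24 h against 2 h in CT26, 0 for the 2 h rechallenge at 2 weeks in CT26 and 0 to 1 for that at 3 weeks in YUMM2.1. These fits have fewer samples.

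The median r of same-numbered samples was 0.00077 in YUMM2.1 and 0.0054 in CT26, against 0.0026 and -0.0035 for other numbers. The replicate numbers are therefore not taken as a pairing, and shared handling by number was not tested. A replicate block gave 0 for the 2 h rechallenge at 3 weeks in YUMM2.1 and lost the call of Mavs between untreated lines. In YUMM2.1 13 of 45 and in CT26 21 of 45 samples were closest to their own number, and no expected count was computed. TMM-scaled CPM moved 8 of 270 group means by more than their SD. Of 31 pathway and control gene values, recomputed by a choice made after seeing the data, 22 kept their side of the threshold throughout. Members at a few counts per library, foremost Dhx58, Ifih1 and Ddx60 in YUMM2.1, are limited by depth. Where the cause of a lost call is not the smaller number of samples or genes, the cause was not tested.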
